A study of Mus musculus with 2 samples.

Results

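Y RNA fragments are short reads cut from the Y RNAs, and here they are those of Rny1 and Rny3, the mouse genes for Y1 and Y3. Both were chosen by name, and a read was counted when it was at least 18 nt long and lay in sense, without mismatch, in the GENCODE transcript of either gene. They are 2 of 27516 annotated genes that held such a read in the series. The 2 libraries held 265462 Y RNA reads in the Dicer -/- line and 42502 in the Dicer f/f line.

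The study sequenced small RNA from adult mesenchymal stem cells (MSCs), fibroblast-like cells of bone marrow, with and without Dicer, the nuclease that cuts miRNA precursors. One library came from an immortalized clonal line with the genotype Dicer -/- (called null here), and 1 from a clonal line with the genotype Dicer f/f, in which both alleles are floxed. Both lines are of the C57BL/6 strain and were harvested near confluence from alpha-MEM medium that held antibiotics and 10% fetal bovine serum. The sequenced RNA, of 15 to 50 nt, had been cut from a 15% denaturing gel. The labels do not give the age or sex of the animals, how or when the floxed allele was deleted, or which part of Dicer1 was removed. The title of the null library ends in a 2 whose meaning is not stated. Each genotype is 1 clonal line and 1 library, so no test between genotypes was possible. Every interval below is at 95% and covers counting error alone, not variation between clones, cultures or library preparations.

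The libraries held 6291599 reads (null) and 9943989 reads (f/f), of which 5265872 and 9133899 were at least 18 nt long. Reads in Dicer1 numbered 44 in the null library and 16 in the f/f library, and such mRNA fragments do not check the deletion. miRNA reads made up 2.17% of the null library and 59.6% of the f/f library. All 10 mesenchymal miRNA markers were detected in both libraries, at a sum of 5126 CPM (counts scaled to an equal library total) in null and 212529 CPM in f/f, and being Dicer products they do not check the cell type of the null line. Blood markers summed to 11.9 CPM in null and 3.62 CPM in f/f, and epithelial markers to 24.8 CPM in null and 3.22 CPM in f/f, with Mir429 at 0 reads in both.

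Y RNAs are short noncoding RNAs made by RNA polymerase III. The first and last bases pair into a stem that carries the binding site of the Ro60 protein, and the La protein binds the run of U at the 3′ end. Ro60 and its Y RNAs are known for roles in the quality control of misfolded noncoding RNA, and in human and other vertebrate cells Y RNAs have been tied to the start of DNA replication. Cleavage releases fragments of either end, known from dying cells and from serum, and in human cells these have been reported to form without Dicer.

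Rny1 (ENSMUSG00000065701.1) lies at chr6:47788069-47788180 on the minus strand and is 112 nt long. Rny3 (ENSMUSG00000064945.1) lies at chr6:47781624-47781725 on the plus strand and is 102 nt long. Coordinates are those of GRCm38, and both genes are annotated as misc_RNA. The sequences of both RNAs, written as DNA from the GENCODE transcripts, are shown because every result below is a position in them. Capitals mark the leading fragments: bases 1 to 30 and 84 to 110 of Rny1, and bases 1 to 25, 40 to 61 and 73 to 100 of Rny3.
Rny1: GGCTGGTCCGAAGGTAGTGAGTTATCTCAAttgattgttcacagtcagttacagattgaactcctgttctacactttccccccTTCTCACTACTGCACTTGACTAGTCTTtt
Rny3: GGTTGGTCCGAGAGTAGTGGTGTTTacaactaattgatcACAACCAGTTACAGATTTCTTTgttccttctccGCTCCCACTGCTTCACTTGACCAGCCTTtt

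The first 20 bases of the RNAs were identical at 16 positions, and counted from the first base they differed by C3T, A12G, G13A and A20G, with the base of Rny1 first. The last 5 bases were the same, and the longest run in common was 12 nt. No read lay in both RNAs, so each read belonged to 1 of them. In the minimum free energy structure predicted by RNAfold, used here as a description, bases 1 to 8 paired with 101 to 108 in Rny1 and with 91 to 98 in Rny3.

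Both Y RNAs had a higher CPM in the null library than in the f/f library. Rny1 had 194374 reads (30894 CPM) in null and 36448 reads (3665 CPM) in f/f, a ratio of 8.43 (8.33 to 8.52). Rny3 had 71088 reads (11299 CPM) in null and 6054 reads (609 CPM) in f/f, a ratio of 18.6 (18.1 to 19.1). Together they were 4.22% of all reads in null and 0.427% in f/f, a ratio of 9.87 (9.77 to 9.97). Per base of the RNA the level of Rny1 was 276 CPM in null and 32.7 CPM in f/f, and that of Rny3 was 111 CPM in null and 5.97 CPM in f/f, so Rny1 was the more abundant source in both libraries.

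Many other RNAs were also higher in CPM in the null library, which held few miRNA reads. Both members passed a 2-fold difference, as did 140 of 174 snoRNA, snRNA and other small RNA genes with at least 100 reads (80.5%), where 4 were more than 2-fold lower (2.3%), and 456 of 684 genes of all kinds (66.7%), where 163 were more than 2-fold lower (23.8%). Among those 174 genes the median ratio was 4.62 (quartiles 2.52 and 7.80). Rny3 ranked 8 from the top, and Rny1, counted by reads found in no other transcript, ranked 40 with a ratio of 8.10. More Y RNA fragments per cell and less of the other RNA in the library cannot be told apart here.

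The size of the difference therefore depended on the scale. Per read of snoRNA and snRNA, Y RNA reads were 2.27-fold (2.25 to 2.29) higher in null than in f/f. On that scale Rny1 was 1.94-fold (1.92 to 1.96) and Rny3 4.27-fold (4.16 to 4.38) higher, beside 33 of 174 small RNA genes more than 2-fold higher (19%) and 39 more than 2-fold lower (22.4%). Per read of the other RNA polymerase III transcripts, the ratio was 18.6 (18.4 to 18.8), on a scale set mostly by 5S rRNA.

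**Figure D1:**
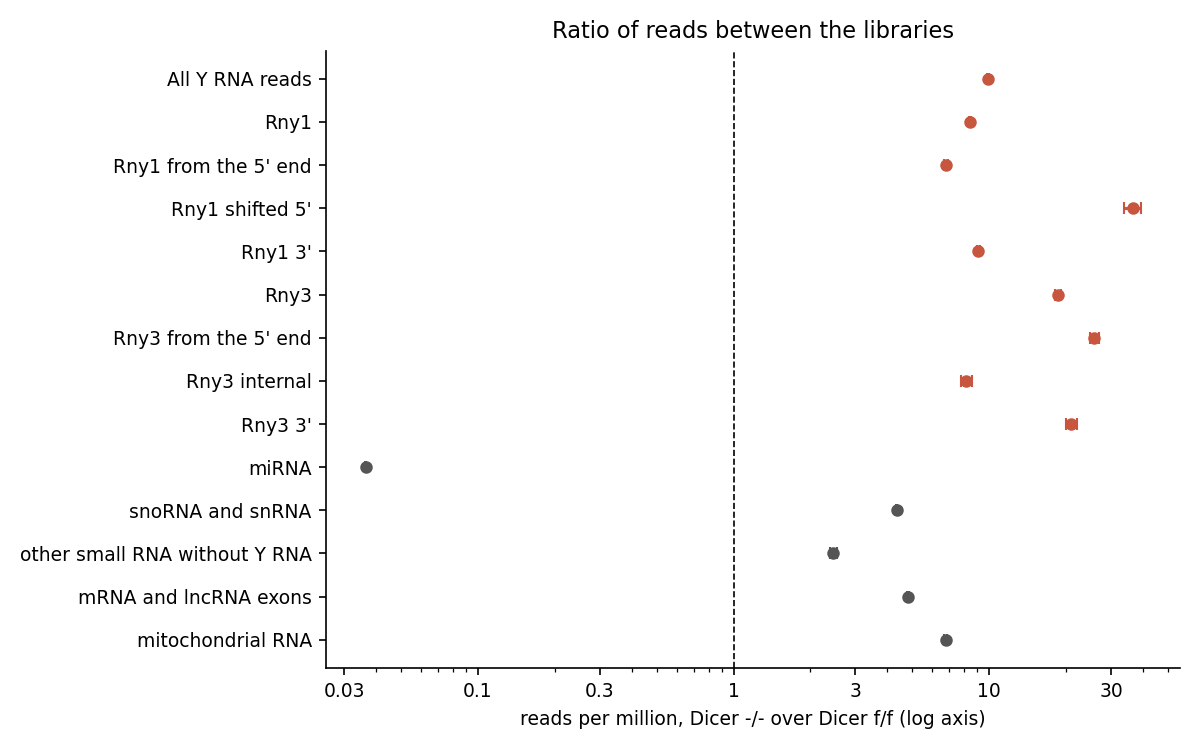
Ratio of CPM, Dicer -/- over Dicer f/f (log axis), for Y RNA reads and fragment groups (red) and for other RNA classes (grey); points are the values, bars are 95% counting intervals where wider than the point, and the dashed line marks a ratio of 1. The Y RNA groups plotted lie between 6.78 and 36.4, against 4.35 for snoRNA and snRNA and 0.0364 for miRNA.

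The balance between the RNAs does not depend on any scale between the libraries. There were 0.366 (0.363 to 0.369) Rny3 reads per Rny1 read in null and 0.166 (0.162 to 0.171) in f/f, a 2.20-fold difference. Rny3 was thus 26.8% of Y RNA reads in null and 14.2% in f/f.

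Reads covered the ends of Rny1 and left the bases between them nearly empty. Base 10 lay in 48.0% of Rny1 reads in null and 51.0% in f/f, and base 90 in 51.4% in null and 47.8% in f/f. No base from 37 to 81 lay in more than 0.469% of the reads in null or 0.546% in f/f. Rny3 had an additional internal peak, with base 50 in 14.2% of its reads in null and 32.3% in f/f, and bases 65 to 69 in at most 0.376% in null and 0.512% in f/f.

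**Figure D2:**
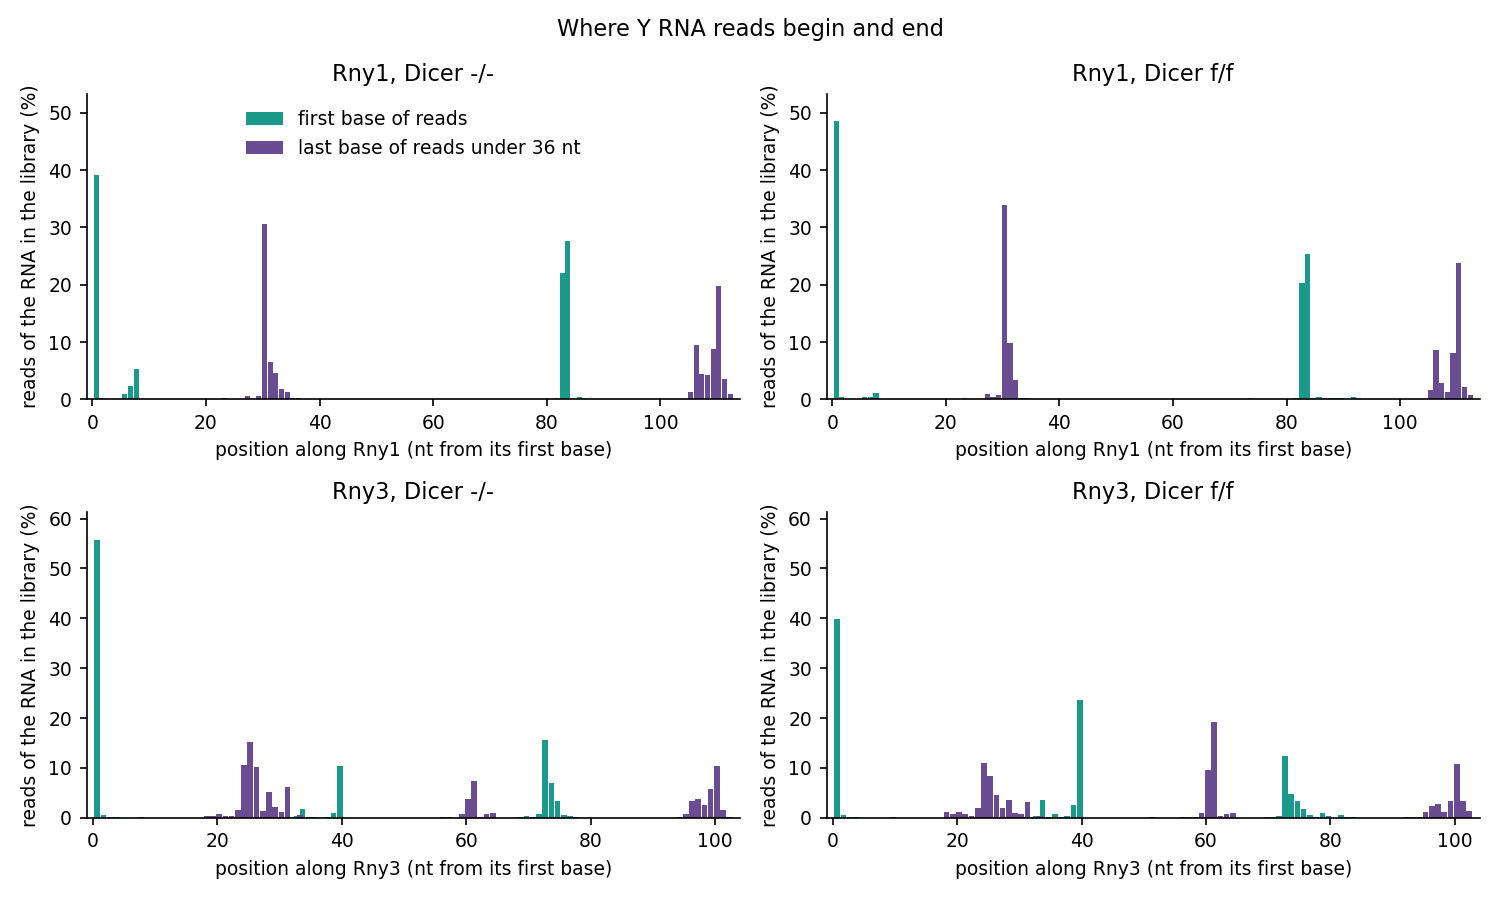
Share of reads of each RNA (%) that begin (green) or end (purple) at each position of Rny1 and Rny3 (nt from the first base), in the Dicer -/- library (left) and the Dicer f/f library (right); last bases are of reads under 36 nt. Reads of Rny1 begin at bases 1, 83 and 84 in both libraries, while base 40 of Rny3 begins 10.3% of reads in null and 23.7% in f/f.

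By the rule that a read is 5′ if it begins within 3 nt of the first base, 44.0% (43.8 to 44.2) of Y RNA reads were 5′ in null and 47.8% (47.3 to 48.3) in f/f. By this rule the RNAs differed in direction. For Rny1 the 5′ share was 39.4% in null and 49.0% in f/f, and for Rny3 it was 56.7% in null and 40.7% in f/f. By the midpoint of the read the direction of Rny3 turned, with 70.6% (70.3 to 71.0) of its reads in the 5′ part of the RNA in null and 72.5% (71.4 to 73.7) in f/f. For Rny1 the midpoint share was 48.3% (48.1 to 48.5) in null and 51.4% (50.8 to 51.9) in f/f. The Rny1 shares by either rule leave out 5′ reads with the 36-nt endings described below, 25749 in null and 2516 in f/f. With those reads the Rny1 difference would be smaller. Reads that end within 3 nt of the last base were 32.3% of Rny1 reads in null and 34.1% in f/f, and 17.7% of Rny3 reads in null and 18.6% in f/f. The remainder, called internal by this rule, includes reads that stop 4 or more bases before the last base, so the fragments are grouped below by where they begin. These groups were set after the positions were seen.

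The 5′ group of Rny1, which begins at bases 1 to 4, had 76514 reads in null and 17847 in f/f, a ratio of 6.78 (6.67 to 6.89). Its leading fragment, bases 1 to 30, was the most abundant Y RNA sequence in both libraries, with 50910 reads in null and 11565 in f/f. It alone was 26.2% of Rny1 reads in null and 31.7% in f/f. Capitals in this and the following fragments mark bases that are paired in the predicted structure of the whole RNA.
Rny1 1 to 30: GGCTGGTCcgaaGGTAGTGAGttATCTcAA

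Base 30 was the commonest last base of Rny1, at 30.6% of reads under 36 nt in null and 33.95% in f/f. A further set of reads was 36 nt long, the longest in the files. Their first 33, 34 or 35 bases matched Rny1 and their last bases read CTG, CT or C. Whether these are fragments of 33 to 35 nt was not tested. There were 26275 such reads in null and 2549 in f/f, and 98.0% of them in null and 98.7% in f/f matched from the 5′ end. In the whole library CTG ended 16.2% of 36-nt reads in null and 10.4% in f/f, against at most 2.11% of reads of 30 to 34 nt in either. These reads do not match in full. Totals of an RNA or fragment group, counts by first base, read lengths and cut ends therefore leave them out. Counts, shares and ratios by the last base within a fragment group, given below, include them by their matched part.

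Counted by their matched part, the 5′ fragments of Rny1 differed between the libraries by where they ended. Those ending at base 30 had a ratio of 6.94 (6.80 to 7.08), with 51255 reads in null and 11678 in f/f. Those ending at base 31 had a ratio of 5.19 (4.99 to 5.39), with 10990 reads in null and 3349 in f/f. Fragments that ended at base 33 had 13797 reads in null and 1260 in f/f, a ratio of 17.3 (16.3 to 18.3), and those ending at base 34 had 10686 in null and 1139 in f/f, a ratio of 14.8 (13.9 to 15.8). The share of 5′ fragments ending at base 33 was thus 14.03% in null and 6.45% in f/f, and this part of the result rests on the 36-nt endings, whose share also differed between the libraries.

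The shifted 5′ group of Rny1, which begins at bases 5 to 9 inside the outer stem, had the highest ratio of the groups. It held 16641 reads in null and 722 in f/f, a ratio of 36.4 (33.8 to 39.3), or 8.56% of Rny1 reads in null and 1.98% in f/f. Base 8 began 10324 of these reads in null and 425 in f/f, and bases 6 and 7 together began 6101 in null and 284 in f/f. The leading fragment, bases 8 to 30, had 4054 reads in null and 205 in f/f.
Rny1 8 to 30: CcgaaGGTAGTGAGttATCTcAA

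Reads that begin at base 8 fit a second gene as well. Gm26168 (ENSMUSG00000065721.1, chr6:122623547-122623658, plus strand), annotated as misc_RNA, has the same first 40 bases as Rny1 apart from T7C, with the base of Rny1 first. Reads that fit both genes numbered 11266 in null and 577 in f/f. Reads that fit Gm26168 and not Rny1 numbered 164 in null and 28 in f/f, against 82651 in null and 18139 in f/f that span base 7 and carry the base of Rny1. Reads from bases 6 and 7, which fit Rny1 alone, had a ratio of 33.95 (30.1 to 38.4), beside 38.4 (34.8 to 42.4) for those from base 8. The high ratio of the shifted group was therefore also measured in reads that fit Rny1 alone. In all, 14109 Rny1 reads in null and 1259 in f/f also lay in 1 or more of 8 other misc_RNA genes, and without them the ratio of Rny1 was 8.10 (8.005 to 8.19).

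The 3′ group of Rny1, which begins at bases 82 to 90, had 99067 reads in null and 17241 in f/f, a ratio of 9.08 (8.94 to 9.23). It was 51.0% of Rny1 reads in null and 47.3% in f/f. These shares leave out the 36-nt reads ending in CTG, CT or C, nearly all 5′. If counted, those would be 11.9% of Rny1 reads in null and 6.54% in f/f. Nearly all began at base 84 (53597 reads in null, 9239 in f/f) or base 83 (42991 in null, 7422 in f/f), in the unpaired run before the stem, and these starts had like ratios of 9.17 and 9.15. The leading fragment, bases 84 to 110, had 20225 reads in null and 4631 in f/f.
Rny1 84 to 110: ttCTCACTACTgcacttGACTAGTCtt

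The other end of this group was a ladder over the last 8 bases. Base 110, which is 2 bases before the annotated end, closed 37.7% of the group in null and 47.8% in f/f. Fragments ending at base 108, the last base of the predicted stem, had 7903 reads in null and 458 in f/f, a ratio of 27.3 (24.8 to 30.03). Those ending at base 110 had a ratio of 7.16 (6.99 to 7.34). The intervals of these ends, which lie 2 bases apart, do not overlap.

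The 5′ group of Rny3 had 40274 reads in null and 2465 in f/f, a ratio of 25.8 (24.8 to 26.9). Its reads began at base 1 as those of Rny1 did, but ended earlier and over a wider range. Bases 1 to 25 had 10428 reads in null and 483 in f/f, and bases 1 to 24 had 7367 in null and 649 in f/f, so the order of these fragments was reversed between the libraries.
Rny3 1 to 25: GGTTGGTCcGAGAGTAGTGGtGTtt
Rny3 1 to 24: GGTTGGTCcGAGAGTAGTGGtGTt

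Counted by last base, 5′ fragments of Rny3 that ended at base 24 had a ratio of 17.95 (16.6 to 19.5). Those ending at base 25 had a ratio of 33.9 (31.004 to 37.2), those at base 26 one of 42.4 (37.5 to 48.0) and those at base 31 one of 36.4 (31.5 to 42.3). The shortest, ending at base 18, had a ratio of 6.25 (4.74 to 8.34), with 257 reads in null and 65 in f/f. Most of the longer 5′ fragments of Rny3 had the higher ratios, with base 27 (13.9) as an exception.

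**Figure D3:**
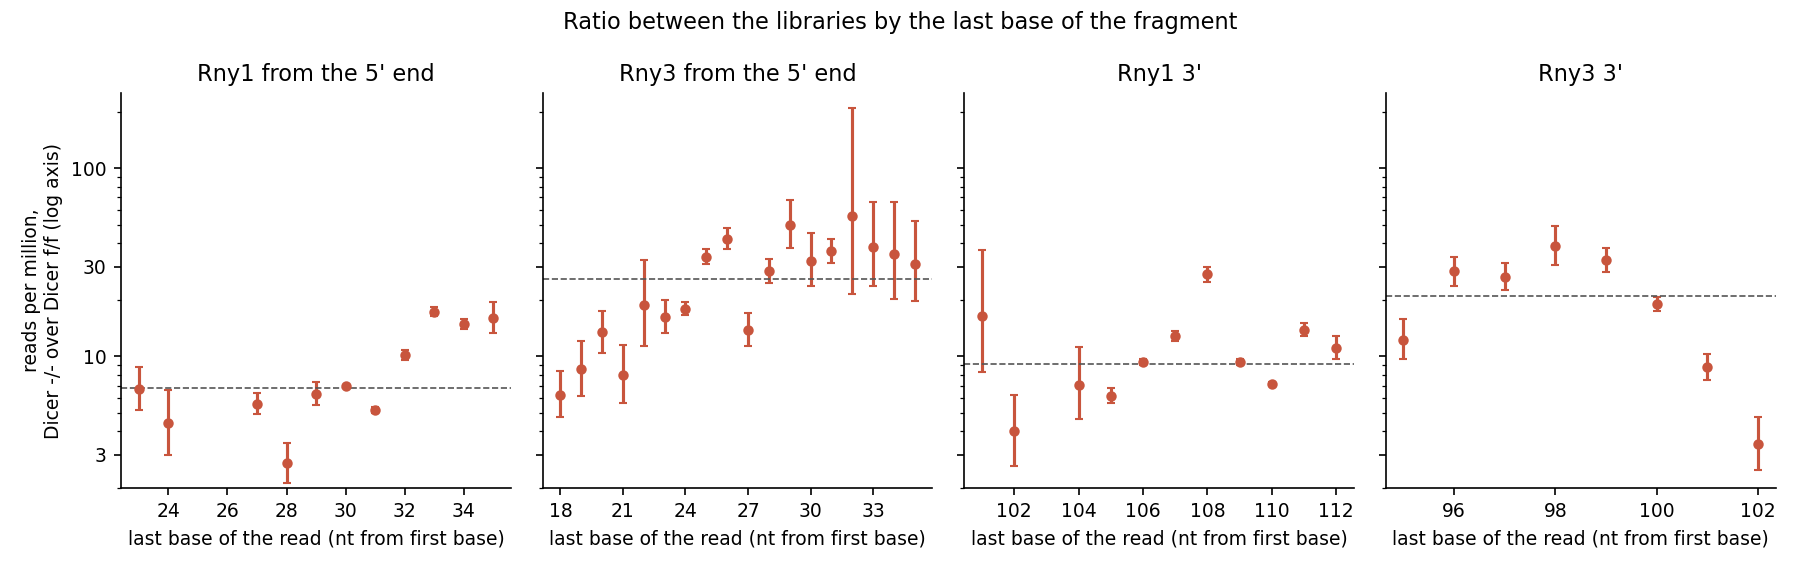
Ratio of CPM, Dicer -/- over Dicer f/f (log axis), by the last base of the fragment (nt from the first base of the RNA) for the 5′ and 3′ groups of Rny1 and Rny3; points are last bases with at least 100 reads in both libraries together, bars are 95% counting intervals and the dashed line is the ratio of the whole group. Fragments of Rny1 ending at base 33 lie at 17.3 and those ending at base 31 at 5.19. The points count 36-nt reads ending in CTG, CT or C by their matched part, while the dashed line leaves them out. For the 5′ group of Rny1 the line is at 6.78, and with those reads the ratio was 7.94.

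The internal group of Rny3, which begins at bases 33 to 41, had the lowest ratio of the named Rny3 groups. It held 9815 reads in null and 1906 in f/f, a ratio of 8.14 (7.75 to 8.55), and was 13.8% of Rny3 reads in null and 31.5% in f/f. Base 40 began 7340 of these reads in null and 1433 in f/f. The leading fragment, bases 40 to 61, lies between the strands of the outer stem and is 22 nt long. It ranked 6 among Rny3 sequences in null, with 3939 reads, and was the most abundant in f/f, with 830 reads. No such internal peak was seen in Rny1. With up to 3 unmatched end bases allowed, the ratio of the internal Rny3 group was 10.7 (10.3 to 11.2). In that setting the ratio was 26.0 for the 5′ group of Rny3 and 19.5 for its 3′ group.
Rny3 40 to 61: aCAAccAGTTACAGAtttcTTT

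The 3′ group of Rny3, which begins at bases 70 to 79, had 20098 reads in null and 1514 in f/f, a ratio of 20.98 (19.9 to 22.1). Base 73 began 55.1% of the group in null and 49.9% in f/f. Its leading fragment, bases 73 to 100, had 4426 reads in null and 288 in f/f.
Rny3 73 to 100: GCtcCCACTGCTtcaCTTGACCAGCCtt

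As in Rny1, the commonest last base of the group lay 2 bases before the annotated end. This was base 100, with 7198 reads in null and 600 in f/f, or 35.8% of the group in null and 39.6% in f/f. Fragments that ran to base 102, the last base, had 125 reads in null and 58 in f/f, a ratio of 3.41 (2.48 to 4.73). Those ending at base 98 had 1785 reads in null and 73 in f/f, a ratio of 38.6 (30.6 to 49.5). The lowest ratios were those of fragments with the most complete 3′ end, which was not so for Rny1, where fragments ending at base 112 had a ratio of 11.1 (9.71 to 12.8).

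Read lengths followed from these ends. The commonest lengths of Rny1 were 30 nt, at 26.7% in null and 32.1% in f/f, and 27 nt, at 16.3% in null and 17.6% in f/f. Rny3 had its peaks at 25 nt (18.9%) and 24 nt (14.9%) in null, and at 22 nt (15.7%) and 24 nt (14.4%) in f/f. Reads of 21 to 23 nt, the usual length of miRNAs, were 15.5% of Rny3 reads in null and 31.4% in f/f, and 8.94% of Rny1 reads in null and 7.60% in f/f. The length profiles of the libraries shared 88.5% of their area for Rny1 and 79.9% for Rny3.

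**Figure D4:**
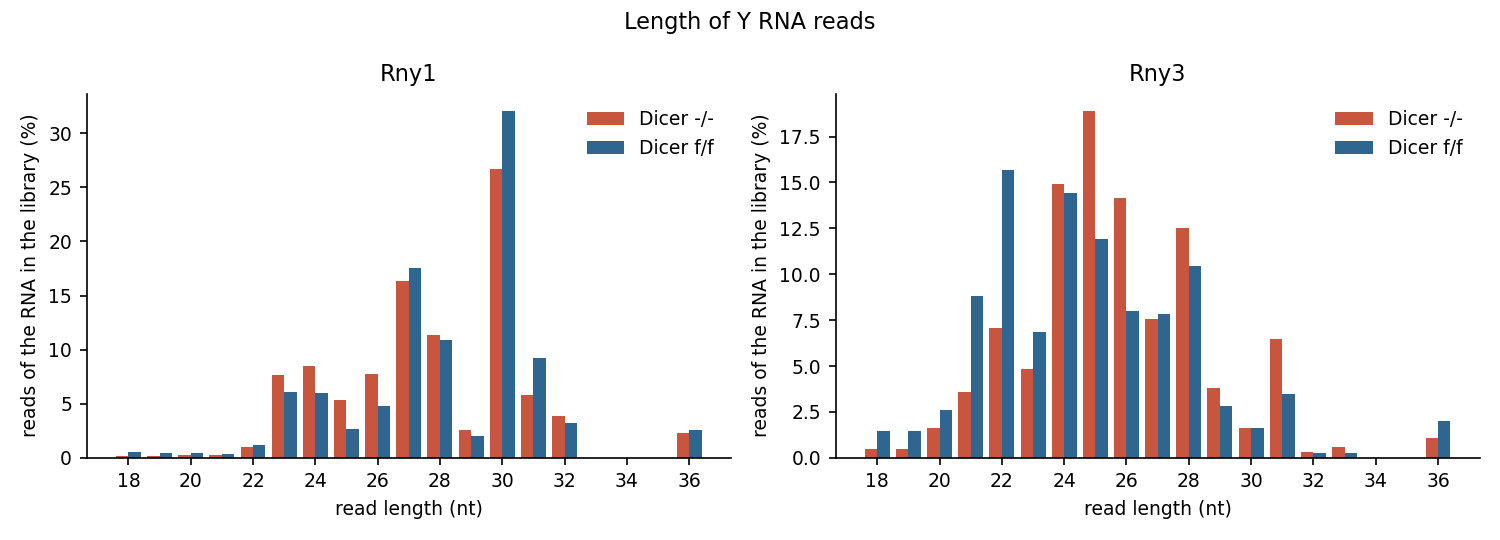
Share of reads of Rny1 and Rny3 (%) at each read length (nt) in the Dicer -/- library (red) and the Dicer f/f library (blue). Rny1 peaks at 30 and 27 nt in both libraries, while Rny3 peaks at 25 nt in null and at 22 nt in f/f. The files hold no reads of 35 nt and none over 36 nt. Reads of 36 nt ending in unmatched CTG, CT or C are left out.

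Each read end away from the termini was taken as 1 cut. Starts at bases 1 to 4 and ends with 8 or fewer bases to the annotated end were not counted. Ends at base 106 of Rny1, between 2 paired bases, were thus left out (17968 reads in null, 3062 in f/f), while starts from base 5 on count. The commonest cut of Rny1 lay between bases 30 and 31, at 27.9% of cut ends in null and 32.96% in f/f. The next were those between bases 83 and 84 (25.7% in null and 25.3% in f/f) and between 82 and 83 (20.6% in null and 20.3% in f/f). In Rny3 the leading cut was between bases 72 and 73 in null, at 13.7% of cut ends against 9.51% in f/f. The cut between bases 39 and 40, at 9.07% in null and 18.1% in f/f, was the leading one in f/f. The first cut of Rny1 separates 2 paired bases in the predicted structure, whereas both its 3′ cuts lie between unpaired bases. Cuts between 2 unpaired bases were 47.5% of Rny1 cut ends in null and 46.7% in f/f, where such bonds are 30.6% of the bonds in the RNA. Cuts between 2 paired bases were 51.1% in null and 51.2% in f/f, where such bonds are 52.3%. These shares leave out the 36-nt reads of Rny1 ending in unmatched CTG, CT or C, 26275 in null and 2549 in f/f. The matched part of nearly all of those stops between 2 paired bases, so the paired share would be higher with them. In Rny3 cuts between unpaired bases were 44.7% in null and 41.6% in f/f, where such bonds are 24.8%, and cuts between paired bases were 26.3% in null and 35.2% in f/f, where such bonds are 54.5%. These are positions of read ends, and trimming after a cut would move them.

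Some reads carried 1 to 3 A at the end that the RNA does not encode. Such reads were not counted above, and shares here are of reads under 36 nt with and without them. They were rare in the 5′ groups, at 0.375% for Rny1 in null and 0.634% in f/f, and at 0.732% for Rny3 in null and 1.15% in f/f. After bases 25, 28 and 31 of Rny3 the RNA itself continues with A, so an added A there counts as matched and cannot be seen. After base 24, where it does not, the share was 1.01% in null and 0.455% in f/f, and after base 26 it was 0.652% in null and 2.92% in f/f. In the shifted 5′ group of Rny1 such reads were 6.67% in null and 12.03% in f/f. They were common in the 3′ groups, at 28.4% (28.2 to 28.7) for Rny1 in null and 29.1% (28.6 to 29.7) in f/f, and at 23.9% (23.4 to 24.4) for Rny3 in null and 28.1% (26.2 to 29.96) in f/f.

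The internal group of Rny3 had the largest share of A ends and the largest difference. It was 46.8% (46.1 to 47.5) in null and 30.9% (29.3 to 32.7) in f/f, and at base 61 alone it was 56.4% in null and 37.4% in f/f. In the 3′ groups the direction changed with the base. After base 109 of Rny1 A ends were 43.4% of reads in null and 53.4% in f/f, and after base 110 they were 32.2% in null and 20.7% in f/f. Base 99 of Rny3, also 3 bases from the end, had 44.9% in null and 58.0% in f/f. Base 100, which like base 110 of Rny1 lies 2 bases from the end, had 21.2% in null and 26.2% in f/f, so the RNAs differed in direction there. Base 101 of Rny3 had 23.3% in null and 8.41% in f/f. Whether an unannotated copy of either RNA encodes these A was not tested, since no genome sequence was used here.

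**Figure D5:**
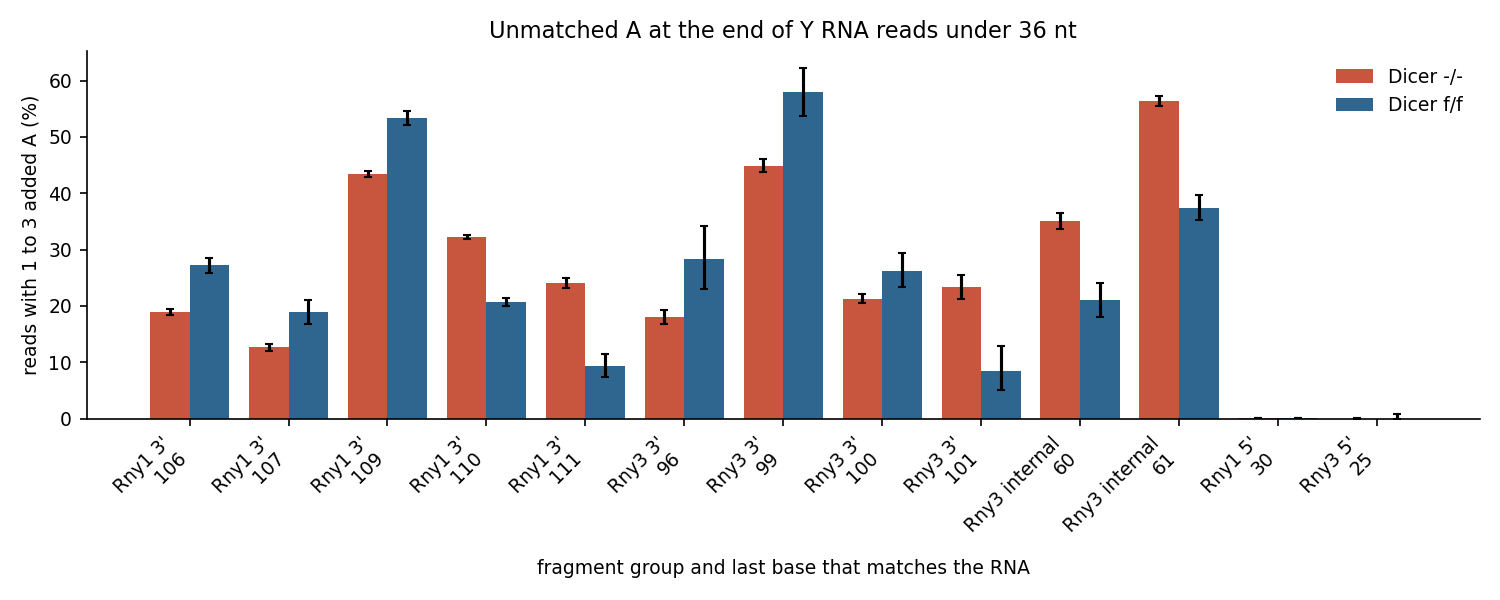
Share of reads under 36 nt with 1 to 3 unmatched A (%) by fragment group and last matching base, in the Dicer -/- library (red) and the Dicer f/f library (blue), with 95% counting intervals. Base 61 of Rny3 stands at 56.4% in null and 37.4% in f/f, while base 30 of Rny1, its leading 5′ end, is near 0. After base 25 of Rny3 the RNA itself continues with A, so an added A there counts as matched and the share is 0 by construction.

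Other RNA polymerase III transcripts were compared by a list. Of 12 entries 10 are in the annotation, and 7 of those had a ratio over 2, 1 under 0.5 and 2 in between, with a median of 2.78. A ratio over 2 was held by 66.7% of all genes and by 80.5% of snoRNA, snRNA and other small RNA genes. The 2 in between, Rn7s1 and Rn7s2, had identical counts, 7920 reads in null and 9015 in f/f, and are not separate values. Vaultrc5, the vault RNA, had 512 CPM in null and 50.0 CPM in f/f, a ratio of 10.2 (9.32 to 11.3), which lies between those of Rny1 and Rny3. Rpph1, the RNA of RNase P, had a ratio of 5.25 (4.29 to 6.47), and Rn7sk, which holds back transcription elongation, one of 3.51 (2.67 to 4.67). The 5S rRNA genes, counted together, had 10634 CPM in null and 23065 CPM in f/f, a ratio of 0.461 (0.457 to 0.465).

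Fragments of mRNAs whose proteins bind, process or cut Y RNA were few. Of 20 such genes 18 had at least 10 reads in the libraries together, and 17 of the 18 had a ratio over 2. Among all genes with at least 100 reads, which include miRNA genes, the share was 66.7%. No share was computed for mRNA genes alone. Together the listed genes had a ratio of 5.01 (4.58 to 5.48), near the 4.81 (4.78 to 4.84) of all mRNA and lncRNA reads. The median was 6.72, with genes at 0 reads in a library set to a floor of 3 reads, beside 5.32 for the same genes of all kinds, whose read minimum was higher. Trove2, the gene of Ro60, had 322 reads in null and 145 in f/f, a ratio of 3.51 (2.88 to 4.30). Ssb, the gene of La, had 20 reads in null and 4 in f/f. Fragments of an mRNA in a small RNA library are no measure of its level.

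Genes of like ratio were sought among 184 genes outside the lists, other than mRNAs and lncRNAs, with at least 1000 reads. The 5 whose ratio was nearest to that of all Y RNA reads were all snoRNAs. They were Gm26224 (9.41), Snord2 (9.23), Snord17 (8.73), Snord104 (8.37) and Gm24339 (11.7), and likeness is here only the difference of ratios over 2 libraries. Vaultrc5, left out as a listed gene, had 3223 reads in null and 497 in f/f. Its ratio of 10.2 was nearer to the 9.87 of all Y RNA reads than those of the 5 snoRNAs. Y RNA reads were 95.9% of reads from the class of other small RNAs in null and 85.4% in f/f, and without them that class had a ratio of 2.46 (2.38 to 2.53).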

How the data were processed

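The authors deposited, for each of the 2 libraries, a list of distinct read sequences of up to 36 nt with the count of each, with no gene names or coordinates. The genome build is mm9 per the submitters' processing notes. Trimming and alignment steps are not given in the sources read for this work, and how reads were cut to 36 nt decides which longer fragments match. Reads of at least 18 nt were matched in sense and without mismatch to GENCODE M21 transcripts (GRCm38). CPM is counts scaled to an equal total over all reads in a file (6291599 null, 9943989 f/f), so 3 reads, the floor used against 0, are 0.477 CPM in null and 0.302 CPM in f/f. Intervals are exact: Clopper-Pearson for shares, Poisson for counts, and for ratios the conditional interval of both counts. PCR copies are not independent molecules. With 1 library per genotype no test was made.

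Python 3.11.15, numpy 2.4.6, scipy 1.17.1, matplotlib 3.10.9 and RNAfold 2.7.2 were used. On data simulated for null over f/f, 400 of 400 Y RNA fragments and 0 of 400 shuffled ones were matched. In 200 draws per fold, the interval of the ratio held the fold used in 95.5% of draws (fold 1), 94% (fold 2), 96.5% (fold 8) and 95.5% (fold 18). Those draws were Poisson counts and do not cover variation between libraries.

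Both members were named. For each, the 3 commonest first and last bases, the 2 commonest lengths and the 2 most abundant sequences per library were named. To these were added 2 lists and the 5 genes of nearest ratio outside the lists. The members and lists were chosen with earlier results of these data known, and the fragment groups, other last bases and A ends after their values were seen. A tail of 2 or 3 bases was not counted where its second or later base matched the RNA, since it can be read as a single substitution. Alternatives were other denominators, read lengths, mismatches, shared reads, copy counting and end rules.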

Additional observations from a re-analysis of the deposited data

Results flagged for a closer look

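The values here come from reads that the comparisons above leave out, and each is above the 3 reads that a count of 0 allows. Sense Y RNA reads of 15 to 17 nt numbered 3957 in null and 814 in f/f, with 0 antisense reads in either library. Reads under 36 nt with 1 to 3 unmatched A after a Y RNA sequence numbered 60346 in null and 9411 in f/f. Reads of 36 nt that matched a Y RNA and ended in unmatched CTG, CT or C numbered 27095 in null and 2608 in f/f. What made these reads was not tested.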

How the results depend on the processing

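No paired analysis was possible because each genotype had 1 library, and leaving out a replicate was impossible for the same reason. The ratio of null over f/f stayed above 1 for all Y RNA, Rny1 and Rny3 reads under 11 of 12 alternatives each. The exception was counting each distinct sequence once, per distinct sequence in the library. This gave 0.736 for Y RNA, 0.672 for Rny1 and 0.813 for Rny3. Among fragment groups it gave 0.612 (Rny1 5′), 0.725 (Rny1 shifted 5′), 0.463 (Rny1 3′), 0.822 (other Rny1), 0.744 (Rny3 5′), 0.724 (Rny3 internal) and 0.566 (Rny3 3′). Distinct Y RNA sequences numbered 748 of 909932 in null and 459 of 410792 in f/f. A distinct sequence counts the same at any number of reads, so this setting does not measure abundance. The other 89 of 96 fragment group values stayed above 1.

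Ratios for Y RNA, Rny1 and Rny3, in this order, were 10.8, 9.25 and 20.4 per read of 18 nt or more, 33.3, 28.4 and 62.6 per read in any transcript, 2.27, 1.94 and 4.27 per snoRNA and snRNA read, and 18.6, 15.9 and 34.97 per other RNA polymerase III read. They were 11.4, 9.71 and 21.5 without 36-nt reads, and 10.5, 8.98 and 19.9 without sequences seen once. Both settings also left those reads out of the library totals, where 36-nt reads numbered 903323 in null and 166598 in f/f. For Y RNA and Rny1 they were 9.63 and 8.10 without reads of other transcripts, 10.3 and 8.86 with 1 mismatch, 10.3 and 9.06 with up to 3 unmatched end bases, and 10.3 and 8.94 with 36-nt reads ending in CTG, CT or C counted by their matched part, a setting chosen after seeing the data. Rny3 moved by less than its counting interval under these 4 settings, and all 3 ratios did so with reads from 15 nt.

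The 5′ share of Y RNA reads was 43.4% in null and 47.2% in f/f from 15 nt, 43.1% in null and 46.8% in f/f without 36-nt reads, and 46.5% in null and 49.2% in f/f without reads of other transcripts. It was 41.03% in null and 43.1% in f/f with 1 mismatch, 41.2% in null and 41.8% in f/f with unmatched end bases, 13.1% in null and 14.2% in f/f by distinct sequences, and 48.9% in null and 50.7% in f/f with the 36-nt endings. Counting only starts at base 1 gave 43.5% in null and 47.3% in f/f, and counting by midpoint gave 54.3% in null and 54.4% in f/f. By midpoint the pooled shares were level, while each RNA taken alone had a lower 5′ share in null. Those midpoint shares leave out 5′ reads of Rny1 with the 36-nt endings, 25749 in null and 2516 in f/f. Counted, they would raise the 5′ share of Rny1 more in null than in f/f and so narrow its difference. The midpoint shares with them were not computed. Rny3 reads per Rny1 read were higher in null under all 9 selections, by 1.995-fold to 2.29-fold where copies were counted and 1.21-fold by distinct sequences. Depth limits the f/f library most, where Rny3 had 6054 reads and some last bases had fewer than 20.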

Other observations

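Reads of 30 nt that began at base 1 of Rny1 and differed from it at 1 base, and that fit no other transcript, were led by A29C in null, with 3072 reads or 4.87% of the 63046 reads with up to 1 difference. In f/f that substitution had 138 reads, or 1.03% of 13441, and the leading one was G19T, at 1.48% in null and 1.66% in f/f. Positions are counted from the first base of Rny1, with its base first. All single substitutions together were 19.2% in null and 13.96% in f/f. Their source was not tested.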
